A study of Drosophila melanogaster with 19 samples.

Results

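The comparison set the circular RNAs of cultured S2 cells against those of wild-type fly heads, after both RNAs had been treated with RNase R. It used 5 of the 19 libraries of the study, chosen by their labels: 1 library of S2 cells and 4 of heads of wild type Canton-S Drosophila melanogaster. S2 is a cultured Drosophila line of embryonic origin with features of hemocytes, the blood cells of the fly. It grows as dividing cells, whereas a head holds brain, eye, muscle, fat body and cuticle. The head libraries are titled WT18 and WT29, with replicates 1 and 2 of each. What 18 and 29 stand for, the age and sex of the flies and the culture conditions are not given in the sources used here. Total RNA of all 5 had ribosomal RNA removed with Ribominus and was digested with RNase R (3 U per µg, 15 min, 37 °C) before TruSeq RNA libraries were built. Nothing in the labels says whether the replicates came from separate flies. S2 cells gave 1 RNase R library, so no difference below has a replicate check on the S2 side and none carries a p-value.

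A circular RNA forms when the spliceosome joins the end of a downstream exon back to the start of an upstream one. A read across that back-splice junction is the mark by which such an RNA is counted. RNase R degrades linear RNA from its free end and spares closed circles. In flies, circular RNAs are known to be abundant in the nervous system, and muscleblind (mbl) gives one of the best known. In such bulk samples, fewer cells of a type and less of an RNA per cell cannot be told apart.

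The 5 libraries held reads at 4654 junctions, of 5286 in the 3 tables joined for the study. The S2 library had 14874 listed back-splice reads at 1215 junctions. The head libraries had 12205 and 16714 reads (WT18, replicates 1 and 2) and 20254 and 12548 reads (WT29) at 2041 to 2476 junctions. The S2 total thus lay within the range of the heads, while its junctions were fewer than in any of them. Sequencing depth is not part of the tables. Every value below is therefore a share, in reads per 10000 listed back-splice reads of that library, and a junction high in one library lowers the shares of all others. The tables list junctions with at least 2 reads in all, so a library without listed reads may still have had 1.

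The S2 reads were piled on few circles. The first 50% of the S2 reads, ranked by junction, were reached with 18 junctions, against 78 to 98 junctions in the 4 head libraries. The 10 highest junctions of each library held 41.3% of the reads in S2 cells and 23.4 to 27.0% in heads. By gene, CG17646 alone held 30.3% of the S2 reads and 0.217 ± 0.143% (SD, n = 4) of the head reads. mbl held 0.397% in S2 cells and 11.7 ± 2.01% (SD, n = 4) in heads. In both cases the S2 value lay far outside the 4 head values.

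Of the 1215 junctions with reads in S2 cells, 473 (38.9%) also had reads in at least 1 head library. These were 12.1% of the 3912 junctions of the heads. The shared junctions carried 70.7% of the S2 reads (95% exact interval 70.0 to 71.4) and 46.6 ± 0.87% (SD, n = 4) of the head reads. At the level of host genes, 383 of 607 genes with S2 reads (63.1%) and of 1533 genes with head reads (25.0%) had reads on both sides. More of the genes than of the exact junctions were therefore common to both. Sharing a junction did not mean sharing its level. Summing the smaller of both shares over all junctions, an S2 and a head library had 12.7 to 13.9% of their profiles in common. A pair of head libraries had 67.4 to 69.4% in common across WT18 and WT29, and 76.1 to 78.7% within them.

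**Figure D1:**
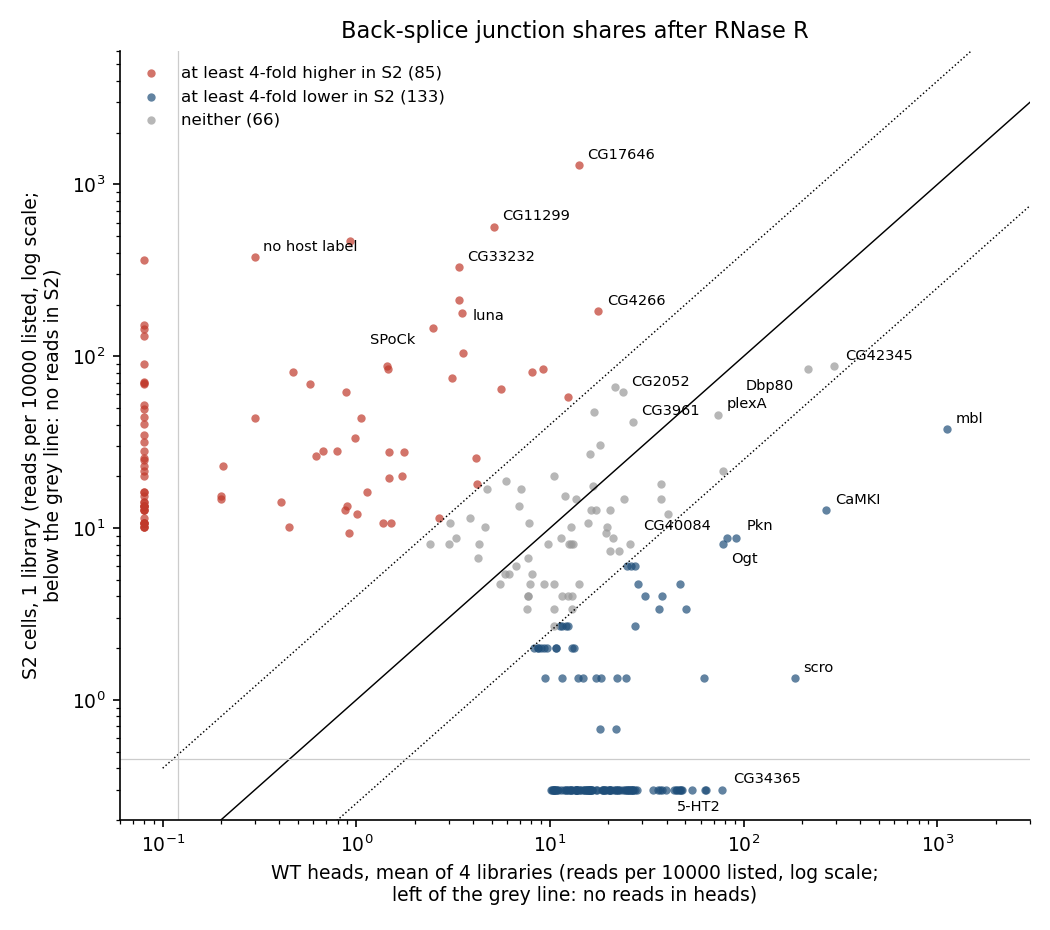
Share of each of the 284 junctions kept for the calls, in S2 cells (1 library, y axis) and in WT heads (mean of 4 libraries, x axis), in reads per 10000 listed back-splice reads on log scales; the solid line marks equal shares and the dotted lines a 4-fold difference. Few points lie near equality: 85 junctions are called higher in S2 cells, 133 lower and 66 neither, and many of the called ones have no reads on one side.

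A junction was called higher in S2 cells where its S2 share was at least 4 times the head mean and above all 4 head libraries, and lower in the mirror case. Junctions were kept for this where the mean of the S2 share and the head mean was at least 5 per 10000. Of the 284 kept, 85 were higher in S2 cells (29.9%) and 133 were lower (46.8%). By host gene, 61 of 289 kept genes were higher (21.1%) and 148 were lower (51.2%). These calls describe 1 S2 library against 4 head libraries and are no test. The median log2 ratio of S2 to heads was -1.62 over the kept junctions and -2.09 over the kept genes. With RLE size factors, which scale S2 up, the kept junctions split into 116 higher and 100 lower, with a median log2 ratio of -0.02. TMM factors gave 97 higher, 45.8% of the called junctions, with a median of -0.73. With the CG17646 reads left out of the totals, the genes split into 82 higher and 118 lower. The direction of the majority among the junctions thus hangs on the scaling, and single values below are given on the plain shares. Against the WT18 libraries alone 86 junctions were higher and 132 lower, and against the WT29 libraries alone 86 and 131. For a junction or gene without S2 reads the 4-fold rule alone asks for a head mean of 8.07, since 3 counts stand in for 0. The filter of 5 on the mean of both sides asks for more than this, and so set the limit for these calls. A junction or gene without reads on one side that passed the filter on shares was called by construction, so counts of calls among kept features describe them and lend no support.

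The 85 higher junctions belonged to 55 host genes, had no head reads in 40 cases and held 68.7% of the S2 reads against 1.29% of the head reads. The 133 lower junctions belonged to 113 host genes, had no S2 reads in 92 cases and held 46.4% of the head reads against 1.67% of the S2 reads. The mock libraries, made from S2 cells and WT heads without RNase R, were not used for the calls. In them 82 of the 85 higher junctions lay above all 4 mock head libraries. Of the 133 lower junctions 73 lay below all 4, and 129 lay below their mean. The mock head libraries held only 876 to 3427 listed reads, and many called junctions had no reads on one side. The same counts over all kept junctions were not made, so the mock counts describe the calls and lend no support.

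CG17646, a predicted ABC transporter of the G subfamily, led the S2 list. As a gene it stood at 3029 per 10000 in S2 cells. In heads it stood at 35.2 and 32.9 in the WT18 libraries and 9.87 and 8.77 in the WT29 libraries, so S2 was 140-fold above the head mean. The WT18 values were all above the WT29 values, and S2 was far above both. Mock S2 cells gave 2214 against 8.75 to 38.05 in the 4 mock head libraries.

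The gene made a family of nested junctions in S2 cells. Of its 32 junctions, all with S2 reads, 6 had reads in heads. The leading one, 2L:1741660-1742260 (+ strand, dm3), is 601 bases long, which matches a stretch of 2 annotated exons. It had 1301 per 10000 in S2 cells, 24.6 and 23.3 in WT18 heads and 3.95 and 4.78 in WT29 heads, which made it 91.9-fold higher in S2 cells than the head mean. The 4370-base junction from the same start, to 1746029, had 466 in S2 cells and 0 to 1.64 in heads, from 5 head reads in all. The longest from that start, to 1748874 and 7215 bases long, had 362 in S2 cells and no head reads. With 3 counts set for the heads it was 746-fold higher, and the exact counting interval of the ratio began at 604. A side without reads is set here to 3 counts of its summed total, 0.486 per 10000 for the heads and 2.02 for S2 cells.

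The start at 1741660 served 7 junctions, which took 82.6% of the gene's S2 reads and 87.6% of its 129 head reads. A second start, at 1743345, took 12.5% in S2 cells and 6.98% in heads. At the other end, 1742260 took 43.0% of the gene's reads in S2 cells and 64.3% in heads. The ends 1747860 and 1748874 together with the start at 1747692 had no head reads at all, while 1748874 took 17.8% of the gene's S2 reads. The short circle was thus the main form on both sides, and the far ends were seen in S2 cells alone at this number of reads. By length, 17 of the 32 junctions match annotated exons and hold 98.8% of the gene's S2 reads. On the opposite strand 5 junctions had 37 S2 reads (0.821%). One of these, 2L:1741653-1748867 (- strand), has the length of the 7215-base forward junction and lies 7 bases lower in coordinate at both ends.

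**Figure D2:**
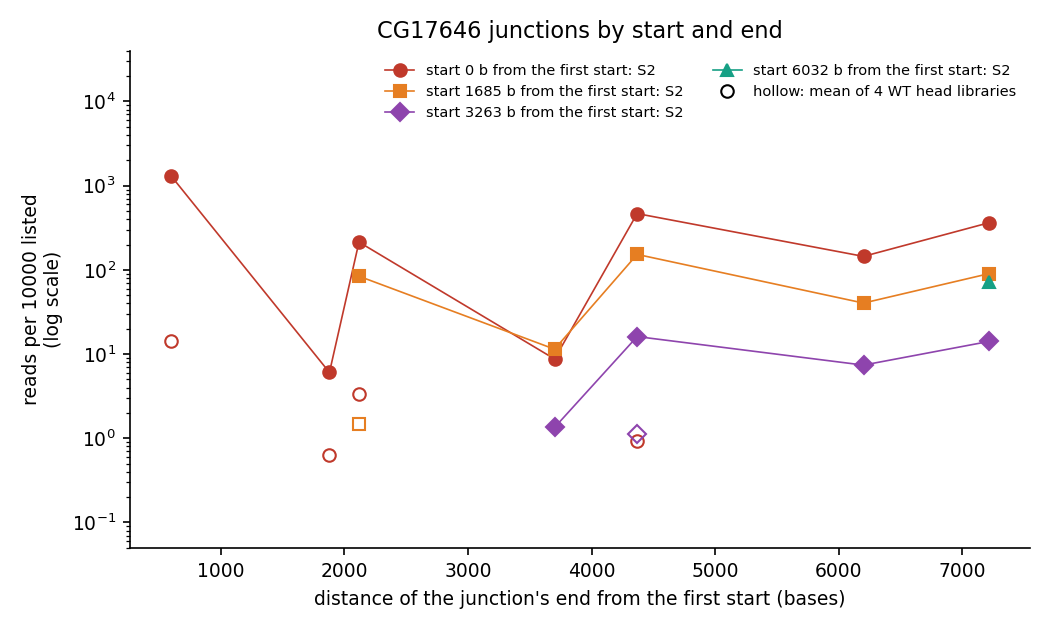
CG17646 junctions on the forward strand from the 4 starts with most S2 reads, by the distance in bases of the junction's end from the first start (x axis) and by share per 10000 listed reads on a log scale (y axis); filled points are S2 cells and hollow points the mean of 4 WT head libraries, drawn where heads had reads. The first start leads at nearly every end, at 1301 for the shortest circle and 362 for the longest, and heads have no points at the 2 farthest ends.

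The other leading S2 circles came from genes of varied roles. CG11299, the fly sestrin (Sesn), a stress-induced regulator of TOR signalling, had a single-exon junction at 2R:19609733-19610398 (+). It stood at 568 per 10000 in S2 cells, 6.55 and 4.79 in WT18 heads and 4.44 and 4.78 in WT29 heads, 110-fold above the head mean. CG33232 (Svil), a relative of the actin-binding protein supervillin, had 330 at 3L:2484564-2485228 (+) and 3.19 to 3.59 in the 4 head libraries. At both of these junctions the head values were close to each other and far below S2. A second host label with the current symbol Svil, CG32306, went the other way and was named after its values were seen. It was called lower, with 0 junctions in S2 cells and 11 in heads, of which 10 match exons.

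CG4266 (Isha), at 2R:17053064-17053379 (-), had 183 in S2 cells, 25.4 and 29.3 in WT18 heads and 10.9 and 5.58 in WT29 heads, 10.3-fold above the head mean. luna, a Krüppel-like zinc finger gene, had 177 at 2R:6987037-6987619 (-) against 2.39 to 5.74 in heads. In mock S2 cells its junction stood at 873, above CG17646's leading junction at 667. After RNase R the share of the luna junction was smaller, at 177, and that of CG17646's leading junction larger, at 1301. Whether the luna junction comes from a circle was not tested. SPoCk, a calcium pump of the secretory pathway, had 147 at 3L:22770211-22771924 (+) against 0.598 to 4.44 in heads. Each of these junctions had reads in all 4 head libraries, at a low share.

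The fourth junction in the S2 order lies in no annotated host gene, at 2L:17863937-17864685 (- strand, 749 bases). It had 379 per 10000 in S2 cells. In heads it had 2 reads, both in replicate 2 of WT18 (1.20 per 10000), and none in the other 3 libraries. The ratio of the reads per listed total was 1168, with a 95% counting interval of 322 to 9669. Mock S2 cells gave 312 and the 4 mock head libraries had no reads there. It made most of the difference in reads without a host label, which were 7.16% of S2 reads and 1.70 ± 0.30% (SD, n = 4) of head reads.

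**Figure D3:**
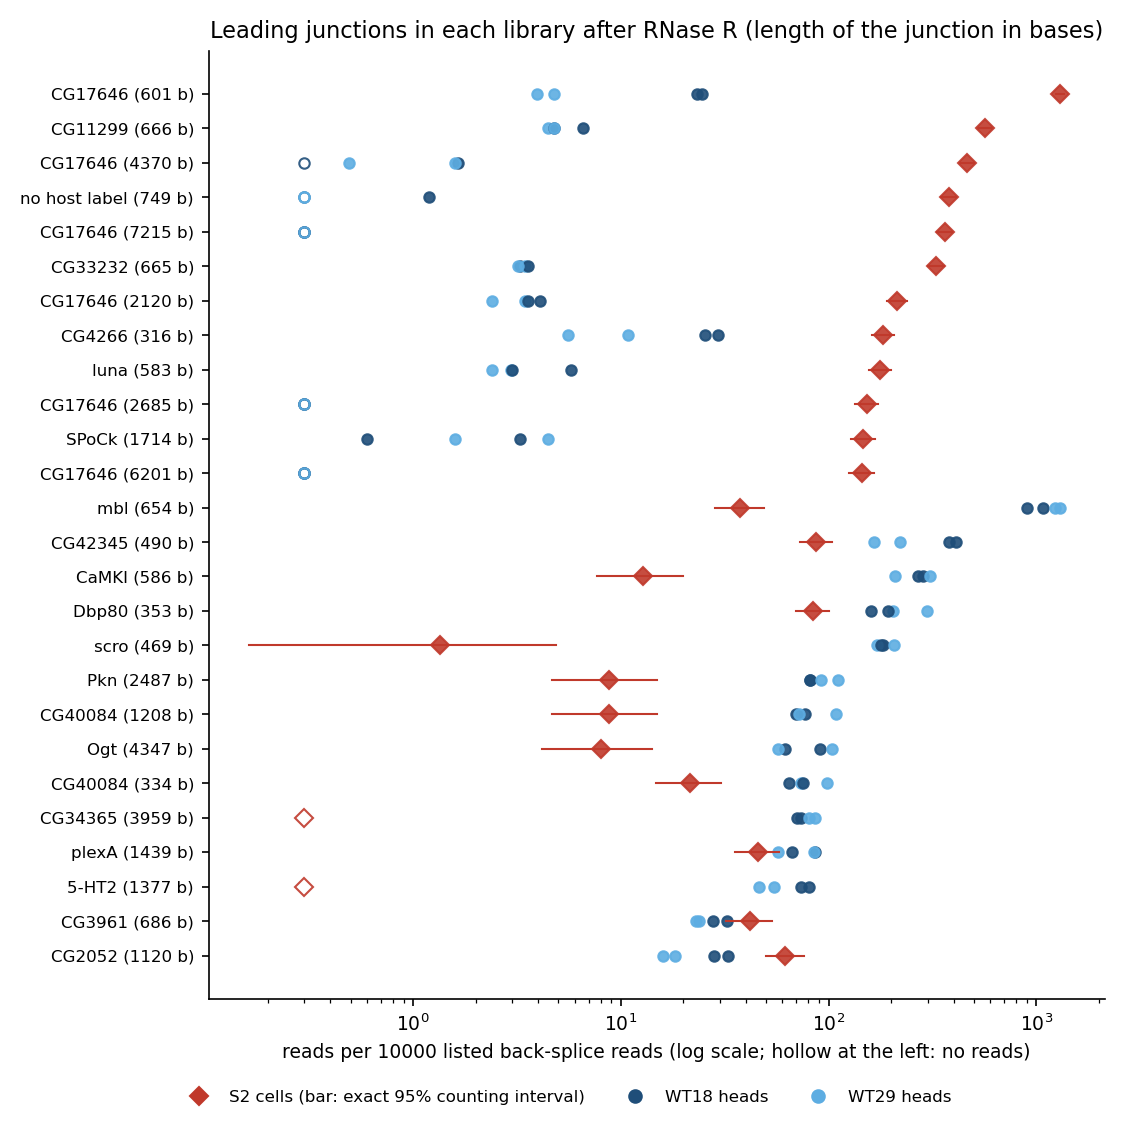
Share per 10000 listed reads on a log scale (x axis) of the leading junctions of S2 cells and of heads in each library; diamonds are S2 cells with exact 95% counting intervals, dark and light circles are WT18 and WT29 heads, and hollow symbols at the left have no reads. The upper 12 junctions are far higher in S2 cells, most of the rest are higher in heads, and CG3961 and plexA lie closest to equality.

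At the level of host genes, cher, which encodes a filamin that cross-links actin, stood at 179.5 in S2 cells over 10 junctions, with 3 reads in all 4 head libraries. The ratio of reads per listed total was 369, with a counting interval of 125 to 1802. CG15032 (gce), a receptor of juvenile hormone, stood at 135 against 4.92 to 7.17 in heads. Tsp66E, a tetraspanin, stood at 96.8 against 0 to 1.48. In all 3 the S2 value was over 10-fold above the highest head library.

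Ef1alpha48D (eEF1alpha1), the translation elongation factor that brings tRNA to the ribosome, differed in form. It stood at 101 per 10000 in S2 cells, spread over 25 junctions with a median length of 260 bases, of which 0 match annotated exons and which lie on both strands (12 and 13). Ef2b (eEF2), the translocation factor, had 31 junctions in S2 cells of median length 254 bases, again with 0 matches and on both strands. It was named after its values were seen. Of the 61 genes called higher, 20 had no S2 junction matching annotated exons, and in 8 of those the junctions lay on both strands. Of the 148 genes called lower, 4 with head junctions had none that matched. Labels without a current symbol could not match and are part of both counts. They include dys and eIF4G among the 20, and Caps, det and rad among the 4. Junctions matching exons carried 77.4% of the S2 reads and 90.3 ± 1.10% (SD, n = 4) of the head reads. Junctions of up to 200 bases carried 4.53% in S2 cells and 1.88 ± 0.776% in heads. Whether such junctions come from circles was not tested, and S2 cells held more of them than each of the head libraries. With matched junctions alone, the calls were 42 genes higher and 146 lower.

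Among the head circles, mbl stood first. Its single-exon junction at 2R:13162915-13163568 (+, 654 bases), from the exon that gives the well known circle of this splicing regulator, had 1072 and 898 per 10000 in WT18 heads and 1234 and 1308 in WT29 heads. S2 cells had 37.6, from 56 reads, 29.96-fold below the head mean of 1128 ± 182 (SD, n = 4). The junction thus had reads in S2 cells as well, and all 4 head libraries lay above them by a wide margin.

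CaMKI, a calcium and calmodulin dependent kinase, had 12.8 in S2 cells at 4:470550-471135 (+) against 209 to 308 in heads, 20.9-fold lower. scro, a homeobox gene of the brain, had 185 ± 15.6 (SD, n = 4) in heads at 3LHet:209156-209624 (+) and 2 reads in S2 cells. The ratio of S2 to heads was 0.00736, with a counting interval of 0.00089 to 0.0266. Its head values, 171 to 207, were among the most even of the leading circles.

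CG34365 (Stacl), known to act on a calcium channel, had 70.5 to 85.9 in heads and no S2 reads at 2R:11340362-11344320 (+). With 3 counts set for S2 cells it was 38.5-fold lower there, and the counting interval of the S2 to head ratio reached up to 0.0317. 5-HT2 (5-HT2A), a serotonin receptor, had 46.2 to 80.2 in heads at 3R:452695-454071 (+) and no S2 reads. With the same counts set for S2 cells it was 31.6-fold lower there, and the interval of its ratio reached up to 0.0391. Pkn, a protein kinase, had 8.74 at 2R:5152995-5155481 (-) against 81.1 to 111 in heads. Ogt (sxc), the enzyme that adds N-acetylglucosamine to proteins, had 8.07 at 2R:1203774-1208120 (+) against 57.4 to 103.7. In mock S2 cells the CG34365, 5-HT2 and Ogt junctions had no listed reads, and the Pkn junction had 2.

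A small group of circles was high in both. CG42345 (stw, straw, the laccase that hardens cuticle) had 87.4 in S2 cells at 2R:1311255-1311744 (+), 412 and 378 in WT18 heads and 220 and 166 in WT29 heads. Dbp80, a DEAD-box RNA helicase, had 84.0 at 3LHet:2454979-2455331 (+) against 160 to 297 in heads. plexA, a semaphorin receptor, had 45.7 at 4:1042868-1044306 (-) against 57.4 to 86.0. All 3 were lower in S2 cells than in each head library, by 3.36-, 2.55- and 1.61-fold from the head mean, and so were not called. With RLE factors plexA stood at 66.5 in S2 cells, within the 53.4 to 83.6 of the heads.

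CG2052 (dati), a zinc finger gene, and CG3961, at 4:411051-412170 (-) and 3L:18880161-18880846 (-), were the reverse. CG2052 had 61.9 in S2 cells and 15.9 to 32.8 in heads. CG3961 had 41.7 in S2 cells and 23.1 to 32.3 in heads. Neither reached a 4-fold difference. CG40084 (uex, a relative of magnesium transporters) gave one circle of each kind, since its 1208-base junction was 9.33-fold lower in S2 cells and its 334-base junction was lower by 3.62-fold and not called.

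Some genes had reads on both sides but another leading junction. Of 56 genes with at least 20 reads on each side, 36 (64.3%) had the same leading junction and 20 did not. For scale, 33 of 37 genes (89.2%) had the same leading junction in the summed WT18 and WT29 libraries. In 7 of the 20, both leading junctions shared 1 end, and in 16 both match annotated exons. In 4 the S2 lead had no head reads, and in 5 the head lead had no S2 reads, so most used both junctions on both sides. Some leads were near ties. In Parp, named after its values were seen, the S2 lead had 19 S2 reads and the head lead 18. In 4 genes, each leading junction took over 50% of the gene's reads on its own side and under 10% on the other. The genes described next were singled out after their values were seen.

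foxo, the transcription factor that insulin signalling holds in check, had both junctions start at 3R:9892263 (+). In S2 cells 196 of its 215 reads ended at 9892584, a single exon of 322 bases, and 6 at 9892874. In heads none of 239 reads ended at 9892584, and 238 ended at 9892874, a stretch of 612 bases. The 4 head libraries had 38, 64, 85 and 51 reads of the longer form and 0 of the shorter. In mock libraries S2 cells had 22 reads of the short form and none of the long one, and heads had 0 and 18.

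SelR, a methionine sulfoxide reductase, showed an exchange over 16 bases. All 47 S2 reads joined 3R:6692251 to 6692682 (-), and all 65 head reads joined 6692251 to 6692698, with 7 to 30 reads in each head library. Neither form was listed on the other side. Sap47, a synapse-associated protein, had 92 of 123 S2 reads at 3R:11779880-11782029 (+) and 0 at the longer junction to 11783641, which had 82 of 134 head reads. The shorter Sap47 junction had 5 reads in heads.

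unc-13, which primes synaptic vesicles for release, exchanged junctions with no common end. The S2 junction at 4:919019-924097 (-) had 34 S2 reads and 1 head read, and the head junction at 4:903243-904267 (-) had 0 S2 reads and 33 head reads. Mock libraries had 24 S2 and 4 head reads at the first and 0 S2 and 4 head reads at the second. As a gene unc-13 was called higher in S2 cells, at 31.6 against 4.79 to 9.01 per 10000 in heads, so the higher share and the other junction went together.

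**Figure D4:**
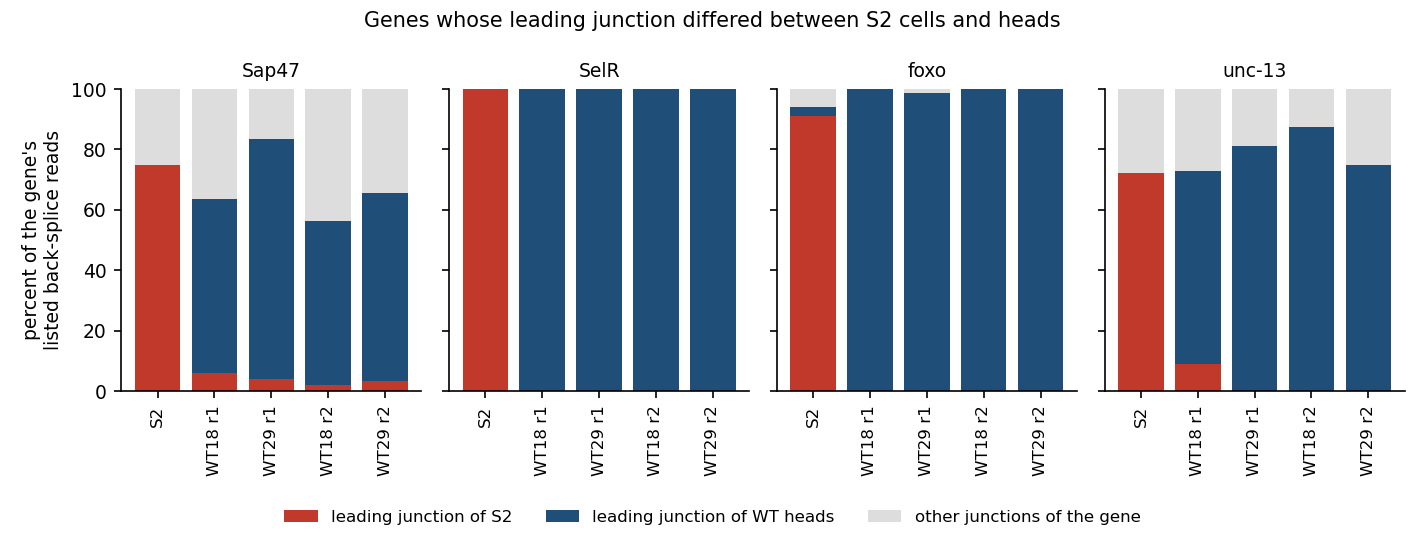
Percent of the gene's listed back-splice reads (y axis) at the leading junction of S2 cells, at the leading junction of WT heads and at all other junctions, in S2 cells and in each of the 4 head RNase R libraries, for the 4 genes in which the leading junctions were exchanged. In foxo and SelR the S2 form is absent from every head bar, and in Sap47 and unc-13 it takes at most 9.09% of a head bar.

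Gene lists were read against the share of all kept genes called, 21.1% higher and 51.2% lower, and against the median log2 ratio of -2.09. For genes without S2 reads the scale was all 1533 genes with head reads, of which 383 (25.0%) had S2 reads. Of the 47 genes of neurons and synapses, 35 had reads. All 35 had reads in heads, 29 of them had none in S2 cells, and 11 were kept. Of those 11, 9 were lower, unc-13 was higher and 1 was neither, with a median log2 ratio of -3.63. The list summed to 47.7 per 10000 in S2 cells and to 564 to 661 in the head libraries. dlg1, a scaffold of synapses and epithelia, had 1 read in S2 cells and 103 to 186 per 10000 in heads. The label Ank2, a neuronal ankyrin, had none in S2 cells and 37.1 to 120 in heads. A second label with the same current symbol, CG32377, was named after its values were seen. It had 3 S2 reads, 2.02 per 10000 against a head mean of 0.354, and was not kept. brp, the active-zone protein Bruchpilot, had no S2 reads and 11.97 to 20.7 in heads.

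The list of ion channel genes, which also holds genes that act on channels such as CG34365 (Stacl), had no S2 reads at all. Of 22 entries 19 had reads in heads, and Stacl and Hk each appear under a second label. The 8 kept had no S2 reads, so they passed the filter through heads and were called lower by construction. The sum was 0 in S2 cells and 273 to 285 in the 4 head libraries, of which CG34365 made up 83.6 to 98.3. The kept genes included Ca-alpha1D, a calcium channel subunit, at 28.6 to 54.1 in heads, slo, a calcium-activated potassium channel, at 34.4 to 45.9, and para, the sodium channel of nerve impulses, at 16.7 to 23.2. For 0 of 14874 reads the exact counting interval reaches up to a share of 2.48 per 10000. The filter had already placed the head means of kept genes without S2 reads above this bound, so it lends no support. The list of photoreceptor genes had 2 kept genes, of which eys, an eye matrix protein, was lower with no S2 reads against 12.6 to 24.6 in heads.

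The markers of S2 origin held a small part of the S2 reads, though a larger part than in each head library. Of 23 genes of hemocytes and their matrix, 14 had reads. All 14 had reads in heads, and 9 of them had none in S2 cells. For scale, 383 of all 1533 genes with head reads (25.0%) had S2 reads. The count of 9 is therefore not read as a result about these genes. Of 4 kept genes 3 were higher in S2 cells, and the list summed to 46.4 in S2 cells and 19.7 to 34.3 in heads. Pxn, a peroxidase of the basement membrane, had 18.2 in S2 cells and 0.598 to 1.64 in heads. srp, the GATA factor of blood cells, had 12.1 against 0.797 to 1.64. LanA, a laminin chain, had 10.1 against 0 to 1.79, but none of its 7 S2 junctions matches annotated exons and they lie on both strands.

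The fourth, Ppn, a matrix protein of hemocytes, went the other way, with no S2 reads and 7.37 to 21.5 per 10000 in heads. At junctions matching exons Ppn had 17 head reads and was not called. Among the rest, Pvr, the receptor for growth factors of the PDGF and VEGF kind, had 4.71 in S2 cells and 0.797 to 3.28 in heads, and Cg25C (a collagen) had 1.34 against 0 to 4.78. Hml, a hemocyte marker, vkg, trol, LanB2, BM-40-SPARC, nimC1, Sr-CI and PGRP-LC had no S2 reads and head means under 2 per 10000. Pxn and srp had passed the filter through their S2 reads, and the hemocyte list as circles gives no clear check of the label S2. Of the lists of head tissues, photoreceptor genes summed to 40.7 to 50.8 in heads and 4.03 in S2 cells.

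**Figure D5:**
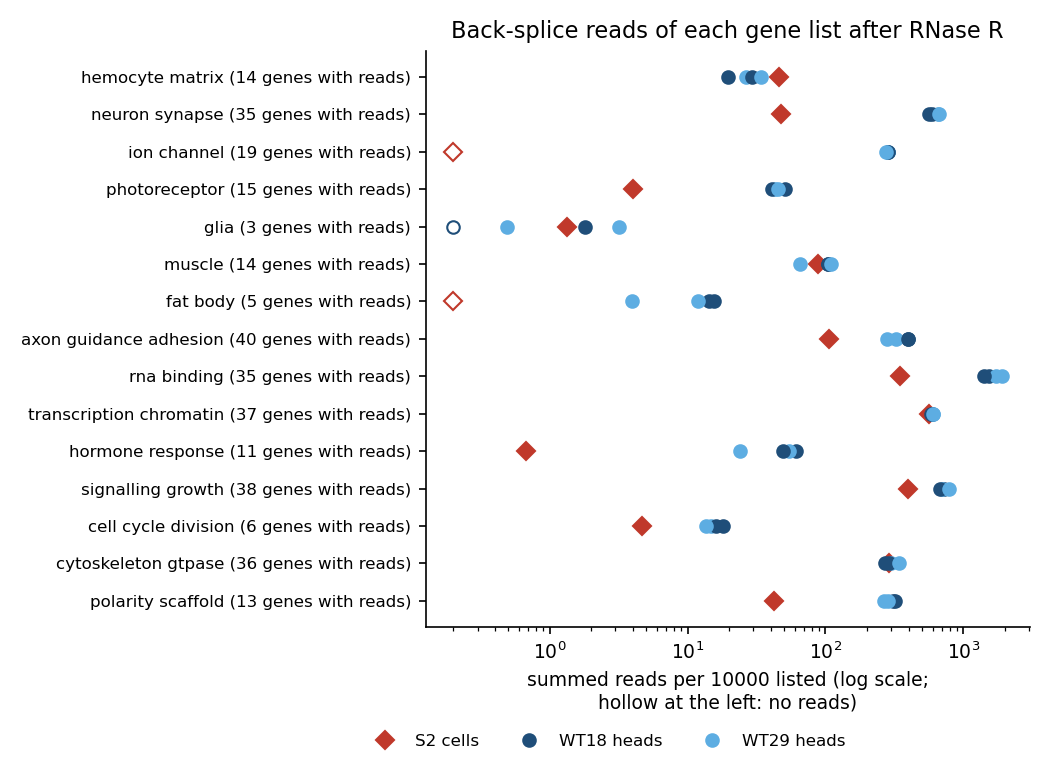
Summed share of each gene list in reads per 10000 listed (x axis, log scale) for S2 cells (diamonds) and the WT18 and WT29 head libraries (dark and light circles); hollow symbols at the left have no reads. The ion channel list is at 0 in S2 cells and at 273 to 285 in heads, while the transcription and cytoskeleton lists have S2 sums close to or within the head values.

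RNA-binding genes were split. Of 14 kept genes 3 were higher, 5 lower and 6 neither, with a median log2 ratio of -0.95. The lower ones besides mbl were CG32062 (Rbfox1), aret, bru-3 and sm. bru-3 had 12 head reads at junctions matching exons and was not called on those alone. CG14065 (larp), a translation regulator, was higher at 81.4 against 4.44 to 12.6 in heads. pAbp, the poly(A)-binding protein, was called higher at 12.8 against 0.598 to 2.47, but none of its 5 S2 junctions matches exons. sqd, an hnRNP protein, had 12.8 and no head reads, from 9 junctions of which none matches exons.

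Transcription and chromatin genes had an S2 sum of 565 against 586 to 600 in heads, with other genes making it up. With RLE factors the S2 sum, 823, lay above the 508 to 585 of the heads. luna, lola and pnt were higher, at 188, 43.0 and 35.0 in S2 cells. Of the 52 pnt reads in S2 cells, 23 lie at 3R:19163618-19479490 (-), which spans 315873 bases, matches no exons and had no head reads. Without junctions with ends over 100 kb apart pnt stood at 19.7 in S2 cells against 0.821 to 10.4 in heads. CrebB-17A, pan, scro, sima and toy were lower, and cnc, ct, foxo and tai were neither. toy, an eye-forming Pax gene, had no S2 reads and 31.1 to 82.5 in heads. pan, the TCF factor of Wnt signalling, had 19.5 in S2 cells against 84.4 to 100.4 in heads. On plain shares the sums nearly met. Of the 12 kept genes 8 were called, no larger a part than over all kept genes (21.1% higher and 51.2% lower).

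In the list of signalling and growth, 3 of 15 kept genes were higher and 9 lower, near the 21.1% and 51.2% of all kept genes. Counts near those shares, here and in the lists below, are not read as results about the lists. The higher ones were mam, the Notch co-activator mastermind, at 77.99 against 1.20 to 5.58 in heads, Gprk2, a kinase of G protein-coupled receptors, at 54.5 against 1.59 to 2.99, and puc, a phosphatase of the JNK pathway, at 14.1 against 0 to 4.10. The lower ones included rl, the fly ERK, at 5.38 against 26.3 to 46.7, and Pvf3, a ligand of Pvr, with no S2 reads against 9.88 to 20.9. For mam and Gprk2 the S2 value was over 10-fold above the highest head library.

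Genes of axon guidance and adhesion had 1 higher and 7 lower of 12 kept. ena, an actin elongation factor, was higher at 16.8 against 0.598 to 2.47. CG33960 (Sema2b), a secreted semaphorin, had no S2 reads and 40.97 to 53.8 in heads. Lar, a receptor phosphatase, had 2 S2 reads and 32.0 and 37.1 per 10000 in WT18 heads but 4.94 and 5.58 in WT29 heads, so that its difference was larger against WT18. The cytoskeleton list had cher higher and 5 of 10 kept genes lower, near the 51.2% lower of all kept genes. Its S2 sum of 288 lay within the 271 to 339 of the heads (419 against 237 to 315 with RLE factors).

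Polarity genes had dlg1, scrib and sdt lower among 6 kept, near the 51.2% lower of all kept genes. l(2)gl was called higher, at 16.8 with no head reads, but 2 of its 25 S2 reads lie at a junction matching exons, and the call was lost on matched junctions alone. l(2)gl, dlg1 and scrib act together in the same polarity module in epithelia. scrib had 10.1 in S2 cells against 46.7 to 75.1 in heads. Muscle genes had CG6416 (Zasp66), bt and Tm1 lower. Msp-300, a giant nesprin, was called higher at 84.7 against 11.4 to 22.3, but 125 of its 126 S2 reads lie at one junction, 2L:816665-8042117 (+), which spans 7225453 bases and matches no exons. Without junctions with ends over 100 kb apart Msp-300 stood at 0.68 in S2 cells, from 1 read, against 4.11 to 10.4 in heads, and its direction turned. Hormone response genes summed to 0.672 in S2 cells, from a single read, and 23.9 to 61.5 in heads, with both kept genes, Eip74EF and Eip93F, lower. Of the cell cycle list grp alone was kept and was lower, and the glia and fat body lists had no kept gene.

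The share of reads per chromosome differed, and on 2L and 2R single genes made up much of the difference. Chromosome arm 2L held 42.3% of S2 reads and 11.0 ± 1.45% of head reads. CG17646, which lies there, alone held 30.3% and 0.217 ± 0.143%. Chromosome 4, small and rich in heterochromatin, held 2.68% against 8.53 ± 0.841%. The heterochromatic scaffolds held 2.53% against 10.5 ± 1.76%, and 2R held 19.0% against 29.9 ± 0.942%. On 2R, mbl alone held 0.397% against 11.7 ± 2.01% (all SD, n = 4). Junctions with ends over 100 kb apart held 1.16% of S2 reads and 0.165 ± 0.068% of head reads, and in mock S2 cells 9.68%. In each of these measures the S2 value lay outside the range of the 4 head libraries.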

How the data were processed

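The authors deposited raw read counts, 1 number for each back-splice junction in each library, with position, strand and, where there is one, a host gene label. CASAVA, Bowtie and the build dm3 are named per the submitters' processing notes. The junction caller, its thresholds and the annotation are not given in the sources used here. The listed total is the only library size. Per-row counts were mapped to libraries by the names in the tables, with 0 unused columns. The head tables and the S2 table were joined where chromosome, strand and both ends were identical, and a junction without listed reads was taken as 0. Shares, intervals (exact, 95%) and calls were computed with Python 3.11.15, pandas 2.3.3 and scipy 1.17.1. TMM and RLE factors came from edgeR 4.0.16 in R 4.3.3 and serve as alternatives only. No molecular identifiers were used, so intervals and the floor of 3 counts cover counting error only. Host labels were matched to current symbols for 1861 of 1918. A junction "matches exons" where its length and strand equal those of 1 annotated exon or of a stretch from one exon start to a later exon end of its gene in the later build dm6; no coordinates were converted, and on heterochromatic scaffolds the strand was not asked for. No genome of the files' build was used, so no sequences are given.

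Named are the 12 junctions with the highest S2 share, the 12 with the highest head mean, the 6 with the highest smaller share, the 10 called genes with the largest difference in each direction, the called members of the 15 gene lists and the hemocyte members with reads; other names are stated as chosen after their values were seen. The members, lists and rules were chosen with earlier results of these data known. The code for the calls was run on counts simulated from the head mean profile with counting error alone. Such counts lack the spread between head libraries and a gene as dominant as CG17646, so nothing is concluded from them about the calls here. Alternatives were other scalings, filters, folds and floors, leaving out head libraries, the slow polymerase mutant heads, mock libraries, looser joins, and junction classes left out.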

Additional observations from a re-analysis of the deposited data

Results flagged for a closer look

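Within the 4 head libraries, 43 junctions and genes were checked for a library far from the others, and chance flags about 1 in 20 such groups. The CG11299 junction at 2R:19609733-19610398 was flagged because replicate 1 of WT18, at 6.55 per 10000, lay away from the other 3 (gap over range 0.838). The junction without a host gene at 2L:17863937-17864685 was flagged because replicate 2 of WT18 had 1.20 per 10000 and the others 0 (gap over range 1), which rests on 2 reads. Both differences are small beside the S2 shares of 568 and 379.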

How the results depend on the processing

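No paired analysis was possible because S2 cells had 1 RNase R library and no result comes from a test. Of 2198 recomputed values of named junctions and genes, 1712 moved by less than the spread of the heads, 475 by more, and 11 called ones changed sign. As log2 ratios of S2 to heads these were Msp-300 at -3.49 without distant ends and -0.35 with exon-matched junctions, bru-3 at 0.48 with exon-matched junctions, beat-Vc at 1.10 against slow heads, and, in mock libraries, Ppn at 0.95, Pvf3 at 0.61, fz at 0.55, aret at 0.37, CG3973 at 0.31, beat-IIa at 0.14 and grp at 0.0068. Apart from CG3973 and Msp-300 without distant ends, S2 cells had no reads there, and the sign rests on the 3 counts set in their place. Of the 25 named genes called higher and 56 called lower, 6 and 6 were not called with exon-matched junctions (among those lower CG3973, CrebB-17A, Tm1 and Caps, whose label has no annotation). Requiring a mean share of 10 per 10000 left 53 junctions higher and 61 lower and 37 genes higher and 68 lower; requiring 2 gave 170 junctions and 108 genes higher. At 8-fold, 73 junctions and 85 genes were lower, and in mock libraries 45 and 52. The share of higher calls, 39.0% of junctions and 29.2% of genes, became 53.7% and 44.6% with RLE factors, 51.97% and 35.1% at 8-fold, 62.8% and 52.7% in mock libraries, 50% of junctions at a share of 2, and 41% of genes without CG17646. Leaving out each head library gave 84 to 86 junctions and 58 to 62 genes higher, 123 to 137 junctions and 143 to 148 genes lower, and 66.0 to 70.2% of S2 reads in shared junctions. The percent of S2 reads in shared junctions, of head reads in shared junctions and of S2 junctions shared was 69.2, 45.5 and 33.99 when 2 reads were required on the other side, 60.5, 36.7 and 25.6 with 5 reads, 68.7, 50.6 and 36.0 with slow heads, 58.9, 35.9 and 31.7 in mock libraries, and 79.1, 49.3 and 71.1 with exon-matched junctions, an alternative chosen after seeing the data like that without CG17646, where the first was 71.5. The leading junction was the same in 67.3% of genes with 10 reads and 72.2% with 50, also chosen after seeing the data. The causes were not tested. One S2 library and the unknown sequencing depth limit every value.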
